A study of Mus musculus with 9 samples.

Results

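The 9 genes described here make up the core of MHC class II antigen presentation in the mouse: H2-Aa, H2-Ab1, H2-Eb1, Cd74, Ciita, H2-DMa, H2-DMb1, H2-Oa and H2-Ob. They were chosen by name, and every probe set of the array annotated to one of these symbols was taken, 19 in all. Of these, 16 carried only the member's symbol and 3 were shared with a neighbouring gene. The 8 members with a probe set of their own belong to the 18193 genes that the array reads through at least 1 such probe set. H2-DMb1 was read only by probe sets annotated to H2-DMb2 as well. A filter on low intensity left 10 of the 16 probe sets in the tests, at least 1 for each of these 8 genes.

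The arrays read RNA of natural killer (NK) cells purified by flow cytometry, in 3 groups of 3 samples. The first group, IL15tg spleen, came from spleens of mice that carry a transgene for interleukin-15, a cytokine on which NK cells depend, and its cells are called mature in the study's design. The second and the third group, NKDxIL15tg spleen and NKDxIL15tg bone marrow (BM), came from crosses of the same interleukin-15 transgenics with NKD mice, a transgenic line known for a deficit of mature NK cells, and their cells are called immature. All 3 groups therefore carry the interleukin-15 transgene, and no group comes from mice without it. Age, strain background, the promoters of the transgenes, the gates of the sort and the number of animals per sample are not given in the sources used here. The samples are called biological replicates, so the p-values measure the spread between these samples. The spleen groups differ at once in maturity and in the NKD cross, and these cannot be told apart.

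MHC class II molecules show peptides from endosomes to CD4+ T cells. An alpha and a beta chain pair in the endoplasmic reticulum with the invariant chain, which blocks the groove and routes the complex to endosomes, where proteases trim it and the H2-DM heterodimer exchanges the remaining fragment for antigenic peptide, a step that the H2-O heterodimer restrains. Transcription of these genes is governed by the coactivator CIITA, which does not bind DNA itself but docks on the RFX, CREB and NF-Y factors that occupy the X, X2 and Y boxes of class II promoters. B cells, dendritic cells and activated macrophages express the pathway constitutively or on induction, whereas mouse NK cells are not known as a major class II-expressing population.

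The box arrangement is shown for 3 members called lower in NKDxIL15tg spleen and 1 that was not called, because it is a feature of these genes that their choice by name did not use. The sequences are RefSeq promoters of build GRCm38.p6, each reaching from 250 bases before to 50 bases after the annotated start, 5′ to 3′. Capitals mark the letters matched by 3 motifs: an X box followed by its X2 box (AGNAAC, 2 free bases, ATGATG), a Y box (ATTGG, or CCAAT on the opposite strand) and a palindromic CRE (TGACGTCA).
H2-Eb1, chr17:34305617-34305916, plus strand: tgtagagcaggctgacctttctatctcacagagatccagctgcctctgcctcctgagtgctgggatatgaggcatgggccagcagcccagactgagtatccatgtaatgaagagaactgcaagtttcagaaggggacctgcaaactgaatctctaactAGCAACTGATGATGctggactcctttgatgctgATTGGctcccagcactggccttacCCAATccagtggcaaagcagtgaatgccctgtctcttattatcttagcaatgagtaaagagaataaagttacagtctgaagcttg
H2-Ob, chr17:34238655-34238954, plus strand: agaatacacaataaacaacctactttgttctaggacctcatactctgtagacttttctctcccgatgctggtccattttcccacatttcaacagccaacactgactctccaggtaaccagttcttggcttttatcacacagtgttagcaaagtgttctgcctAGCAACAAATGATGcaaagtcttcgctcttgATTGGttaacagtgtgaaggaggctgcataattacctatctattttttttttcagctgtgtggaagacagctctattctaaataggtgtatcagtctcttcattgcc
H2-Aa, chr17:34287774-34288073, minus strand: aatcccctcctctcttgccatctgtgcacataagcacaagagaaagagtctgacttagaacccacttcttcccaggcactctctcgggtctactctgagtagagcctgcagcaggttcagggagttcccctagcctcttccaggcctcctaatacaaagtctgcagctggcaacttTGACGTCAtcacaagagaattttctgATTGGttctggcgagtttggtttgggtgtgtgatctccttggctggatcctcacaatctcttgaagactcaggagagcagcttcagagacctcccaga
H2-Oa, chr17:34092129-34092428, plus strand: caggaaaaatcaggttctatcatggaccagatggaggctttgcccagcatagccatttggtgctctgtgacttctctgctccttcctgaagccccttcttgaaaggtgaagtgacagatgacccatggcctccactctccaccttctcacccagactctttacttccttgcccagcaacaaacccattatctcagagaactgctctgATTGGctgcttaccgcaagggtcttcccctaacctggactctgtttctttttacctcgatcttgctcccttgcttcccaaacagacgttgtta
The combined X and X2 letters lay 92 bases upstream of the start in H2-Eb1 and 88 bases upstream in H2-Ob, with a Y box closer to the start, at 59 and 57 bases. They were also found in H2-DMb1, 95 bases upstream, with a Y box at 61. In H2-Aa the full X letters were not matched, and a CRE palindrome at 74 bases preceded a Y box at 48 bases. Of the 3 motifs as searched, H2-Oa matched only the Y box, at 43 bases. Upstream of it the sequence also reads agcaac, which fits the X letters alone, but ATGATG does not follow.

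Of 32851 promoters searched on both strands, 8 held the combined X and X2 letters, or 0.0244%, and 3 of these 8 belonged to the members. The Y box letters were common, in 37.4% of promoters, and the CRE palindrome was found in 1.79%. The table held promoters of 6 of the 9 members, and of the 2 H2-DMa promoters 1 held a Y box, 198 bases upstream. The motif letters were spelled with these promoters in view, and a match is a description of the sequence, not of binding.

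The classical chains were highest in IL15tg spleen, intermediate in NKDxIL15tg spleen and lowest in NKDxIL15tg bone marrow. H2-Aa encodes the alpha chain of the I-A molecule, which presents peptide together with the beta chain encoded by H2-Ab1, and H2-Eb1 encodes the beta chain of I-E. Values are the deposited intensities of each array, in arbitrary units that serve to compare samples for 1 probe set but not 1 gene with another. For H2-Aa, probe set 1438858_x_at read 1107, 1719 and 2390 in IL15tg spleen, 752, 674 and 628 in NKDxIL15tg spleen, and 393, 350 and 308 in NKDxIL15tg bone marrow. All 3 groups were separate, with the lowest IL15tg array above the highest of the NKDxIL15tg spleen arrays and every bone marrow array below both. The group means were 1738 ± 642, 685 ± 63.1 and 351 ± 42.6 (SD, n = 3). In NKDxIL15tg spleen H2-Aa fell to 41.2% of its IL15tg level, a log2 change of -1.28 ± 0.25 (SE; adjusted p = 0.0103, limma with Benjamini-Hochberg adjustment over the 27022 tested probe sets, which holds for every adjusted p here). In these sorted bulk samples, fewer cells of a class II-expressing type and less class II RNA per cell cannot be told apart.

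The other probe sets of H2-Aa moved the same way. Probe set 1435290_x_at read 848, 1333 and 1642 in IL15tg spleen, 486, 448 and 436 in NKDxIL15tg spleen and 274, 248 and 237 in bone marrow, and it fell by 1.43 ± 0.21 on the log2 scale between the spleens (adjusted p = 0.00304). Probe set 1452431_s_at, dimmer, fell by 1.12 ± 0.23 (adjusted p = 0.0143), and its NKDxIL15tg spleen and bone marrow arrays overlapped. The fourth, 1443783_x_at, lay under the filter. It read 46.9, 77.9 and 82.6 in IL15tg spleen, 18.0, 33.8 and 23.0 in NKDxIL15tg spleen, and under the intensity floor of 16 in all 3 bone marrow arrays; tested without the filter, it gave -1.48 between the spleens (adjusted p = 0.0204). The names _x_at and _s_at mark probe sets whose probes can also match related transcripts, so reads of similar sequences may be shared among these sets.

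H2-Ab1, read by 1450648_s_at, stood at 524, 927 and 1236 in IL15tg spleen, 372, 383 and 302 in NKDxIL15tg spleen and 183, 212 and 207 in bone marrow. The group ranges did not overlap, and the IL15tg arrays differed most among themselves. H2-Ab1 fell to 41.5% of its IL15tg level in NKDxIL15tg spleen, a log2 change of -1.27 ± 0.27 (adjusted p = 0.0162). Its other 2 probe sets, 1451721_a_at and 1425477_x_at, stayed between 30.3 and 55.8 in all arrays and lay under the filter. Both overlapped between the spleens. In both, every bone marrow array read below every IL15tg array, as in 20.4% of all tested probe sets. Without the filter, limma called neither between the spleens (adjusted p = 0.343 and 0.591) nor in bone marrow against IL15tg spleen (0.0906 and 0.0724).

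H2-Eb1, read by 1417025_at, stood at 675, 946 and 1290 in IL15tg spleen, 412, 396 and 436 in NKDxIL15tg spleen and 269, 277 and 275 in bone marrow. The arrays lay close together in the NKDxIL15tg groups, with SDs of 20.4 and 4.41 against 308 in IL15tg spleen, and the groups did not overlap. H2-Eb1 fell to 44.2% of its IL15tg level between the spleens (log2 change -1.18 ± 0.20, adjusted p = 0.00592).

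Cd74 encodes the invariant chain, and its gene lies on chromosome 18, apart from the class II locus on chromosome 17. It read 692, 1020 and 1096 in IL15tg spleen, 600, 425 and 413 in NKDxIL15tg spleen and 263, 182 and 211 in bone marrow. The ranges again did not overlap, although the first array of each spleen group came close to the other group. Cd74 fell to 51.4% of its IL15tg level in NKDxIL15tg spleen, with a log2 change of -0.96 ± 0.22 (adjusted p = 0.0227). It was the least stable of these calls: without IL15tg spleen replicate 2 or 3 the adjusted p was 0.0883 or 0.0861, and without NKDxIL15tg spleen replicate 2 or 3 it was 0.0849 or 0.068. H2-Ab1 missed the threshold without IL15tg spleen replicate 2 (0.0661), and H2-Aa 1452431_s_at did so without IL15tg spleen replicate 2 or 3 (0.0589 and 0.0585).

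**Figure D1:**
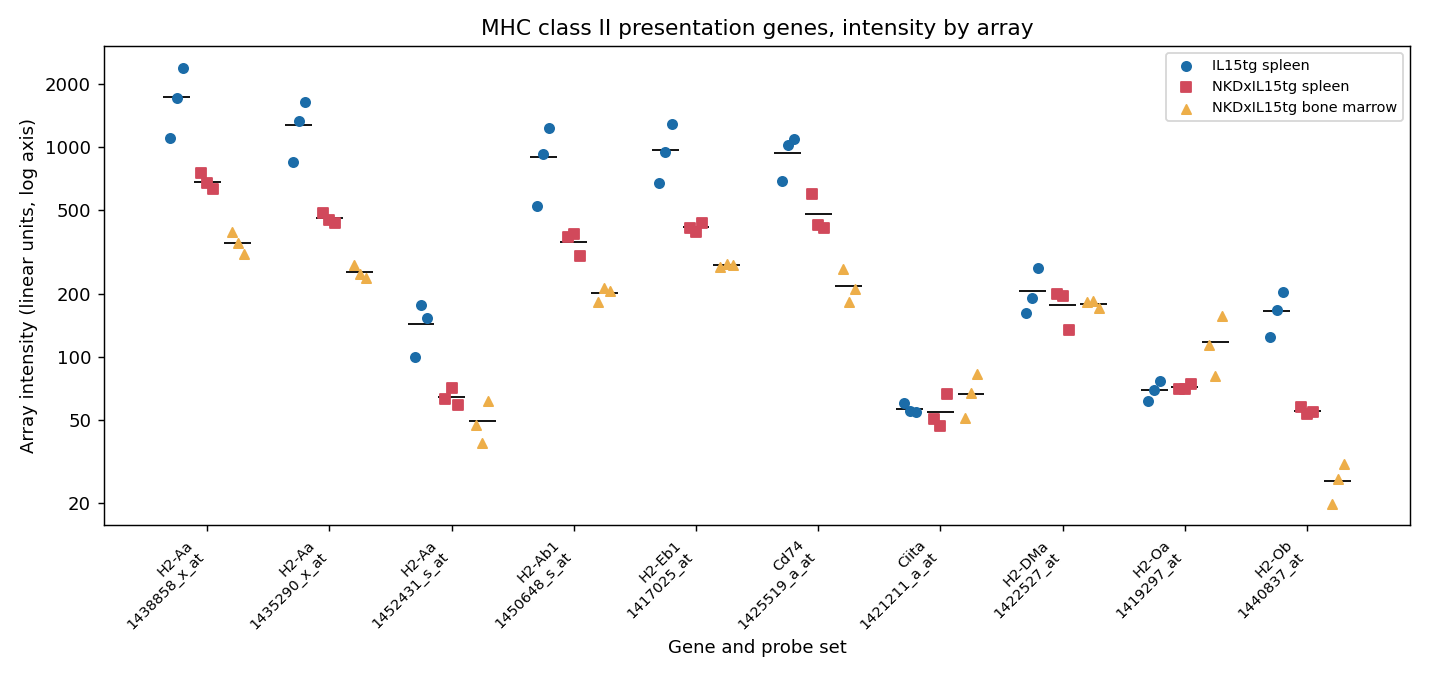
Deposited intensity (log axis) of the 10 tested class II probe sets in each of the 9 arrays, with points for arrays and a horizontal line at each group's mean. H2-Aa, H2-Ab1, H2-Eb1, Cd74 and H2-Ob step down from IL15tg spleen through NKDxIL15tg spleen to NKDxIL15tg bone marrow, while H2-DMa and Ciita overlap between the groups and H2-Oa is highest in bone marrow.

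Of the genes for the peptide-editing heterodimers H2-DM and H2-O, only H2-Ob was called between the spleens, and in 1 of the 2 probe sets that carry its symbol. H2-Ob encodes the beta chain of H2-O, which is known from B cells and thymic epithelium. It read 125, 168 and 203 in IL15tg spleen, 57.8, 53.2 and 54.7 in NKDxIL15tg spleen and 19.9, 26.1 and 30.7 in bone marrow. The groups were widely separate, and the bone marrow arrays all lay below the filter level of 47.7 that the other groups exceeded, so the gene was tested through its spleen values. H2-Ob fell to 34.1% of its IL15tg level between the spleens (log2 change -1.55 ± 0.20, adjusted p = 0.00162). The shared probe set of Gm20506 and H2-Ob, 1422201_at, gave -0.16 (adjusted p = 0.41), so the 2 probe sets that carry this symbol disagreed.

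H2-Oa encodes the alpha chain that pairs with H2-Ob. It read 61.5, 69.1 and 76.6 in IL15tg spleen, 70.3, 69.9 and 74.2 in NKDxIL15tg spleen and 114, 80.9 and 157 in bone marrow. The spleen groups overlapped fully and the bone marrow arrays were all higher. Between the spleens the log2 change was 0.05 ± 0.21 (95% confidence interval -0.43 to 0.54, adjusted p = 0.929).

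H2-DMa encodes the alpha chain of H2-DM, the heterodimer that catalyses peptide loading. It read 161, 190 and 264 in IL15tg spleen, 199, 194 and 135 in NKDxIL15tg spleen and 183, 185 and 171 in bone marrow. All groups overlapped, and the log2 change between the spleens was -0.21 ± 0.21 (95% confidence interval -0.67 to 0.25, adjusted p = 0.592). The only tested probe set for its partner, shared by H2-DMb1 and H2-DMb2 (1449580_s_at), gave -0.24 ± 0.11 (adjusted p = 0.177).

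Ciita encodes the transactivator of the whole pathway. Its tested probe set, 1421211_a_at, read 59.9, 55.1 and 54.2 in IL15tg spleen, 50.2, 46.8 and 66.7 in NKDxIL15tg spleen and 50.8, 67.0 and 82.4 in bone marrow. The groups overlapped and all values lay near the dim end of the tested range. The log2 change between the spleens was -0.06 ± 0.19, with a 95% confidence interval of -0.50 to 0.37 (adjusted p = 0.904). That interval does not reach the falls of H2-Aa, H2-Ab1, H2-Eb1, Cd74 or H2-Ob, but the difference between genes was not tested and the dim signal limits what this probe set could show. The other 2 Ciita probe sets were below the filter, at 20.9 to 56.8.

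Counted over the 10 tested probe sets, 7 were called lower in NKDxIL15tg spleen than in IL15tg spleen at an adjusted p under 0.05 and none was called higher, nor was any higher at an unadjusted p under 0.05. By gene, 5 of 8 fell. Over all 27022 probe sets tested, 7.04% were called lower, 6.75% higher and 13.8% in either direction in this comparison. The median log2 change of the members was -1.15, against -0.00 over all probe sets. All 7 called probe sets had groups that did not overlap, which held for 18.8% of all probe sets in the lower direction and for 38.1% in either.

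**Figure D2:**
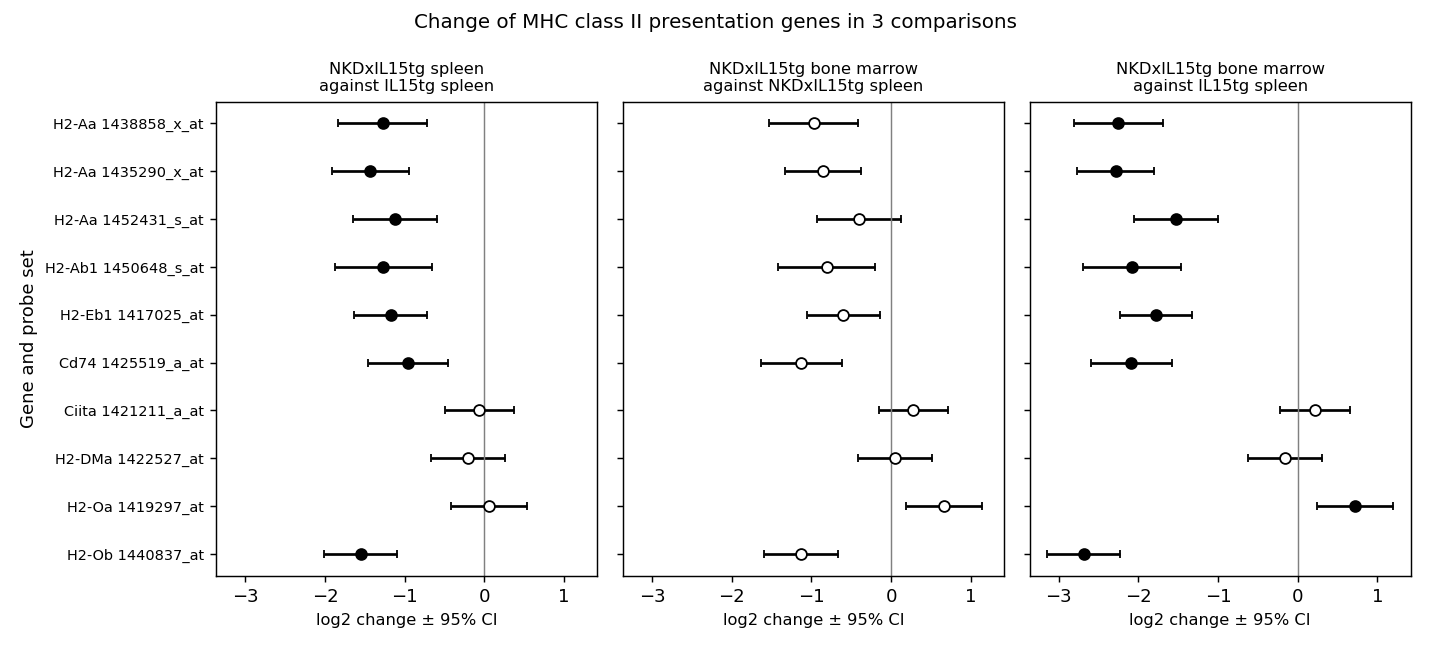
Log2 change of each tested class II probe set in the 3 comparisons, with 95% confidence intervals. Filled points have an adjusted p under 0.05 and open points do not; between the spleens the 7 filled points lie between -1.55 and -0.96, and between bone marrow and spleen of the NKDxIL15tg mice every point is open.

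Bone marrow and spleen of the NKDxIL15tg mice share a genotype and differ in organ. In this comparison 0 of the 10 probe sets passed the adjusted threshold in limma, against 14 of all probe sets, or 0.0518% (0.0407% lower and 0.0111% higher; 23 with the replicate number as a block, still with 0 members). At an unadjusted p under 0.05 there were 6 member probe sets lower, 2 of them of H2-Aa, and 1 higher, where 4.87% of all probe sets were lower and 5.55% higher. The same 6 were lower in bone marrow in all 3 arrays than in any spleen array, a pattern found in 6.31% of all probe sets, while H2-Oa was higher without overlap, as were 9.77%. The values were -0.97 ± 0.25 for H2-Aa (adjusted p = 0.35), -0.81 ± 0.27 for H2-Ab1 (0.435), -0.60 ± 0.20 for H2-Eb1 (0.436), -1.13 ± 0.22 for Cd74 (0.254) and -1.13 ± 0.20 for H2-Ob (0.202). H2-Oa gave 0.66 ± 0.21 (adjusted p = 0.417). H2-DMa, at 0.05, and Ciita, at 0.28, had overlapping groups. The median of the members was -0.70 against 0.02 for all probe sets.

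Bone marrow replicate 3 stood apart from the other arrays. It held 2080 probe sets more than 2-fold above each of the other 8 arrays, against at most 6 in any of those, and it correlated by rank with the other bone marrow arrays at a mean of 0.935, where the remaining arrays reached 0.956 to 0.980 within their groups. Its H2-Aa, H2-Ab1, H2-Eb1, Cd74 and H2-Ob values lay beside those of the other bone marrow arrays, but its H2-Oa value, 157, was the highest of all. Without it the changes against NKDxIL15tg spleen were -0.88 for H2-Aa, -0.83 for H2-Ab1, -0.60 for H2-Eb1, -1.11 for Cd74 and -1.27 for H2-Ob, and H2-Oa gave 0.43 in place of 0.66.

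Against IL15tg spleen, NKDxIL15tg bone marrow was lower in 7 of the 10 probe sets and higher in 1, where 11.5% of all probe sets were called lower, 9.79% higher and 21.3% in either direction. These falls repeat the spleen and marrow differences above, since the comparisons share their arrays. H2-Aa fell to 21.1% of the IL15tg level (log2 change -2.25 ± 0.25, adjusted p = 0.00046), H2-Ab1 to 23.7% (-2.08 ± 0.27, 0.00109) and H2-Eb1 to 29.2% (-1.78 ± 0.20, 0.000542). Cd74 changed by -2.09 ± 0.22 (adjusted p = 0.000408) and H2-Ob by -2.68 ± 0.20 (adjusted p = 6.09e-05). H2-Oa was higher by 0.72 ± 0.21 (adjusted p = 0.0413), a call lost in 11 alternatives, among them without bone marrow replicate 3 (0.0541). The 7 lower calls were kept in each alternative in which their probe sets were tested.

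The 3 IL15tg spleen arrays themselves differed in class II RNA. Replicate 1 was lowest and replicate 3 highest in 8 of the 10 tested member probe sets, an order seen in 17% of all tested probe sets. H2-Aa varied 2.16-fold across these 3 arrays, H2-Ab1 2.36-fold and H2-Eb1 1.91-fold, where the median probe set varied 1.18-fold. These ranges lay at the 99.7th, 99.8th and 99.4th percentile of tested probe sets. Cd74 varied 1.58-fold, H2-Ob 1.63-fold and H2-DMa 1.64-fold, but Ciita only 1.11-fold. Several B cell genes ran in the same order, with Cd79b at 2.33-fold, Ms4a1 at 1.91-fold and Cd79a at 1.89-fold. In the list of B cell markers, Cd72, Ebf1, Fcer2a, Pax5 and Vpreb3 did not run in that order. Irf8 varied 1.11-fold.

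Some markers of B cells were, like the class II genes, highest in IL15tg spleen. Cd79b, a signalling chain of the B cell receptor, read 153, 277 and 356 in IL15tg spleen, 54.5, 68.3 and 54.6 in NKDxIL15tg spleen and 24.6, 20.4 and 23.3 in bone marrow. It fell by 2.07 ± 0.27 between the spleens (adjusted p = 0.00162). Ms4a1, which encodes CD20, read 292, 475 and 557, then 148, 162 and 115, then 20.4, 16.3 and 18.2, and fell by 1.61 ± 0.24 (adjusted p = 0.00292). Cd79a, the other receptor chain, read 87.0, 155 and 164, then 50.8, 42.0 and 39.2, then 39.0, 38.9 and 43.8, and fell by 1.57 ± 0.23 (adjusted p = 0.00272; 0.0691 with a floor of 64). Cd79a averaged below the filter level in both NKDxIL15tg groups, so it entered the tests through IL15tg spleen, where it is high. Like H2-Aa, these 3 markers were lowest in replicate 1 and highest in replicate 3 of IL15tg spleen.

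Of 13 tested B cell markers, 6 fell between the spleens, where 7.04% of all probe sets were called lower, and none rose. None was higher at an unadjusted p under 0.05. The other 7 were not called, and some read higher in NKDxIL15tg spleen: Ighm, the immunoglobulin mu heavy chain, averaged 1426 and 2066 in the IL15tg and NKDxIL15tg spleens (adjusted p = 0.27) and 842 in bone marrow, and Vpreb3, expressed in B cell precursors, 115, 146 and 194. In bone marrow against IL15tg spleen 7 of the 13 fell and 1, Vpreb3, rose, by 0.73 (adjusted p = 0.0226). Over all probe sets, 11.5% were called lower and 9.79% higher in that comparison. The summed intensity of the list ranged from 3337 to 5056 in IL15tg spleen, 3179 to 4450 in NKDxIL15tg spleen and 2176 to 4262 in bone marrow. The sums overlapped, but for bone marrow only through replicate 3 (4262), where Cd22 alone read 1898. Bone marrow replicates 1 and 2, at 2475 and 2176, lay below every spleen array. The 4450 was NKDxIL15tg spleen replicate 1, where Ighm read 2703. Cd79a, Cd79b and Ms4a1 did not overlap between the spleens, but Cd79a did between NKDxIL15tg spleen and bone marrow. In bone marrow against NKDxIL15tg spleen, 3 of the 13 fell: Ms4a1 (-2.94 ± 0.24, adjusted p = 0.00506), Pou2af1 (-2.27 ± 0.23, 0.0141), an octamer coactivator, and Cr2 (-1.67 ± 0.17, 0.0141), the complement receptor CD21. Over all probe sets, 0.0407% were called lower between these groups. Pou2af1 lay under the floor in all 3 bone marrow arrays, so its change is a lower bound, and Ms4a1 lay just above it. The Ms4a1 call was lost with a floor of 64 (0.579), with no filter (0.0622) and when NKDxIL15tg spleen replicate 1 was left out (0.0691). The calls of Pou2af1 and Cr2 were lost with a floor of 64, where the changes shrank to -0.27 and -0.03, with no filter (0.101 and 0.0947) and when any 1 of the NKDxIL15tg spleen arrays was left out (0.0641 to 0.104 and 0.0614 to 0.113). They were also lost without bone marrow replicate 1 (0.05 and 0.0559) or 2 (0.0681 and 0.0638). The part of B cells in the class II differences was not tested.

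**Figure D3:**
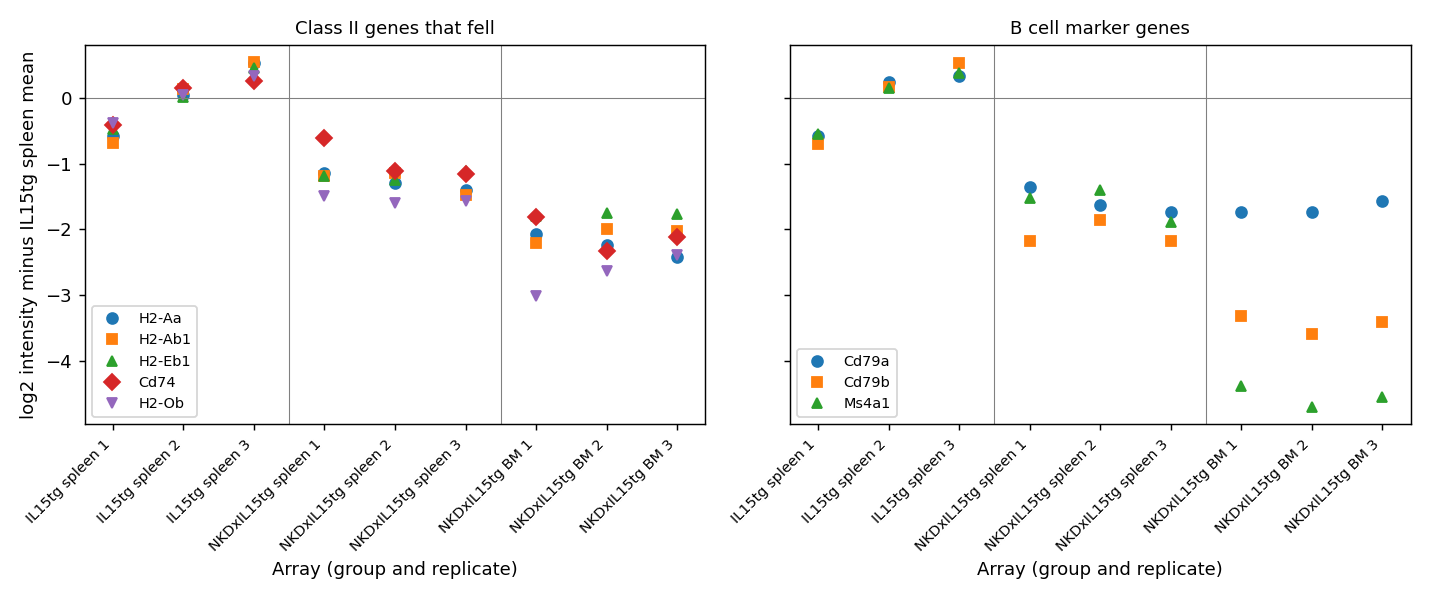
Log2 intensity of the class II genes and of B cell markers in each of the 9 arrays, minus the gene's mean in IL15tg spleen, with a symbol for each gene. Both sets are highest in IL15tg spleen, are lower in replicate 1 than in the other 2 arrays there, and are lowest in NKDxIL15tg bone marrow, whereas Cd79a stays level between NKDxIL15tg spleen and bone marrow.

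Most markers of the other professional antigen-presenting cells were not called between the spleens. Over all probe sets, 7.04% were called lower in this comparison, 6.75% higher and 13.8% in either direction. At an unadjusted p under 0.05, 14.1% were lower and 13.7% higher. Of 14 conventional dendritic cell markers, Ly75 rose by 0.43 (adjusted p = 0.0445) and Batf3, a transcription factor of cross-presenting dendritic cells, fell by 1.03 ± 0.12 (adjusted p = 0.000863) between the spleens. The Ly75 call was lost with the replicate number as a block (0.0581), under both scalings (0.0818 and 0.101), with a floor of 64 (0.0746) and without any 1 of the spleen arrays or bone marrow replicate 1 or 2 (0.0601 to 0.137). Zbtb46, a transcription factor of conventional dendritic cells, gave 0.29 in its brightest probe set (adjusted p = 0.462). Its probe set 1429168_at rose by 0.41 (adjusted p = 0.0258), a call lost without IL15tg spleen replicate 1 or 2 (0.103 and 0.0943), without any 1 of the NKDxIL15tg spleen arrays (0.0627 to 0.0658) and under 75th percentile scaling (0.0733). The list's summed intensity was 1771 to 1828 in IL15tg spleen, 1841 to 2082 in NKDxIL15tg spleen and 1858 to 2779 in bone marrow. Flt3, a receptor of dendritic cell progenitors, changed by -0.02 between the spleens (adjusted p = 0.993). Of 11 macrophage and monocyte markers, 0 were called in limma between the spleens, with 0 lower and 1 higher at an unadjusted p under 0.05, and Adgre1, which encodes F4/80, changed by 0.03 (adjusted p = 0.942), and C1qa, a complement component, by 0.11 (adjusted p = 0.809). Siglech, the defining plasmacytoid marker, lay at 42.9 to 53.2 in all arrays, below the filter on average. Of 6 plasmacytoid dendritic cell markers 1, Ly6d, fell by 0.93 (adjusted p = 0.0159; 0.263 with a floor of 64 and 0.0537 without IL15tg spleen replicate 2), and it too was below the filter level in both NKDxIL15tg groups. Their part in the class II values was not tested.

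In bone marrow replicate 3 alone, 1 probe set of Csf1r, the receptor for macrophage colony-stimulating factor, read 2600 against 616 to 755 in the other 8 arrays, and Flt3 read 727. The class II gene H2-Ea, which is no member of the set, read 1895 there in 1422891_at, against 317 to 406 elsewhere, and a probe set of H2-DMb2 (1443687_x_at) read 734 against 160 to 230. H2-Aa, H2-Ab1, H2-Eb1 and Cd74 were not high in that array. RNA of NK markers was read in all groups. The summed intensity of 14 was 52910 to 54924 in IL15tg spleen, 38993 to 42190 in NKDxIL15tg spleen and 33383 to 35750 in bone marrow. Of the 14, 4 were called lower between the spleens and 0 higher, where 7.04% of all probe sets were called lower. Among the 4, Klrc1 averaged 2928, 270 and 133 in the 3 groups and Klrd1 5941, 1232 and 898. Gzma, the largest term of the sum, averaged 11530, 10559 and 9131. Granulocyte markers ran opposite, at 623 to 917, 2830 to 7233 and 10835 to 26012. Of 6 erythroid markers, 3 were called higher between the spleens, where 6.75% of all probe sets were called higher. The erythroid sum rose from 1753 to 1896 in IL15tg spleen to 7413 to 7932 in NKDxIL15tg spleen. Most of that sum was Car2, which averaged 1407 in IL15tg spleen and 7016 in NKDxIL15tg spleen. In the same order Alas2 averaged 42.3 and 172, and Hba-a1 28.3 and 34.2. Ccr6, a chemokine receptor in the list for type 3 innate lymphoid cells, read 148, 235 and 263 in the IL15tg spleens, 67.6, 68.3 and 84.3 in those of NKDxIL15tg mice and 30.3, 29.0 and 25.0 in bone marrow. It fell by 1.52 ± 0.21 between the spleens (adjusted p = 0.00208) and, like H2-Aa, was lowest in replicate 1 of IL15tg spleen. The part of these cells in the class II values was not tested.

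The factors that act on class II promoters showed mixed changes. Of 7 genes for RFX, NF-Y and CREB subunits, Rfx5, which encodes the largest RFX subunit, rose from 294 to 488 between the spleens (log2 change 0.72 ± 0.16, adjusted p = 0.0213). The Rfx5 call was lost without any 1 of the IL15tg arrays (0.0539 to 0.0864) and without NKDxIL15tg spleen replicate 1 (0.0555). Rfxap, its partner, fell from 269 to 169 (-0.67 ± 0.12, adjusted p = 0.00917), and a second Rfxap probe set gave -0.36 (adjusted p = 0.0593). The other 5 were not called, and 13.8% of all probe sets were called in either direction. The list's median change was -0.09 against -0.00 for all probe sets.

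Among 9 tested genes known to act on Ciita transcription, 4 fell between the spleens, where 7.04% of all probe sets were called lower, and none rose. None was higher at an unadjusted p under 0.05. Irf8, an interferon regulatory factor of B, dendritic and myeloid cells, read 2559, 2560 and 2305 in IL15tg spleen, 1234, 1321 and 1030 in NKDxIL15tg spleen and 1015, 881 and 742 in bone marrow. It was lower in every NKDxIL15tg array than in every IL15tg array, and fell by 1.06 ± 0.15 between the spleens (adjusted p = 0.00209), with -1.84 in its second probe set (adjusted p = 0.00213). Its IL15tg arrays did not follow the order seen for H2-Aa. Ifngr1, a chain of the interferon gamma receptor, fell by 0.85 (adjusted p = 0.034; 0.0606 with the replicate number as a block), and Prdm1, a repressor of Ciita in plasma cells, by 0.73 (adjusted p = 0.0248). The Ifngr1 call was lost without any 1 of the IL15tg arrays (0.0767 to 0.121) or NKDxIL15tg spleen replicate 1 or 3 (0.0812 and 0.0959). The Prdm1 call was lost without IL15tg replicate 1 or 2 (0.0949 and 0.0946) or NKDxIL15tg spleen replicate 2 or 3 (0.0665 and 0.0692), and with quantile normalization (0.0624).

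Downstream of synthesis, 2 of 8 endosomal protease and reductase genes fell between the spleens, where 7.04% of all probe sets were called lower. Ctsl, a cathepsin that trims the invariant chain in thymic epithelium, fell by 0.82 (adjusted p = 0.0129; 0.0581 and 0.0513 without replicate 2 of IL15tg or of NKDxIL15tg spleen) and exceeded the filter level only in IL15tg spleen, and Ctsh fell by 0.87 (adjusted p = 0.0464). The Ctsh call was lost without IL15tg replicate 2 or 3, without any 1 of the NKDxIL15tg spleen arrays and without bone marrow replicate 2 (0.0511 to 0.154). Of 9 trafficking and turnover genes, the lysosomal membrane genes Lamp1 and Lamp2 rose, by 0.51 and 0.53 (adjusted p = 0.0269 and 0.0336), calls lost without any 1 of the IL15tg arrays (0.0663 to 0.105 and 0.0683 to 0.124), for Lamp1 also without NKDxIL15tg spleen replicate 1 (0.0772) and for Lamp2 without replicate 2 or 3 (0.115 and 0.0893). Of 4 tested costimulation genes, 0 were called in limma between the spleens, where 13.8% of all probe sets were called. None of the 4 had an unadjusted p under 0.05, where 14.1% of all probe sets were lower and 13.7% higher. In bone marrow against NKDxIL15tg spleen, limma called 0 genes in all these lists, where 0.0518% of all probe sets were called. At an unadjusted p under 0.05 there were 1 lower and 2 higher among the Ciita regulators, 2 lower among the trafficking genes, and 0 in the others. Over all probe sets, 4.87% were lower and 5.55% higher by that measure.

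**Figure D4:**
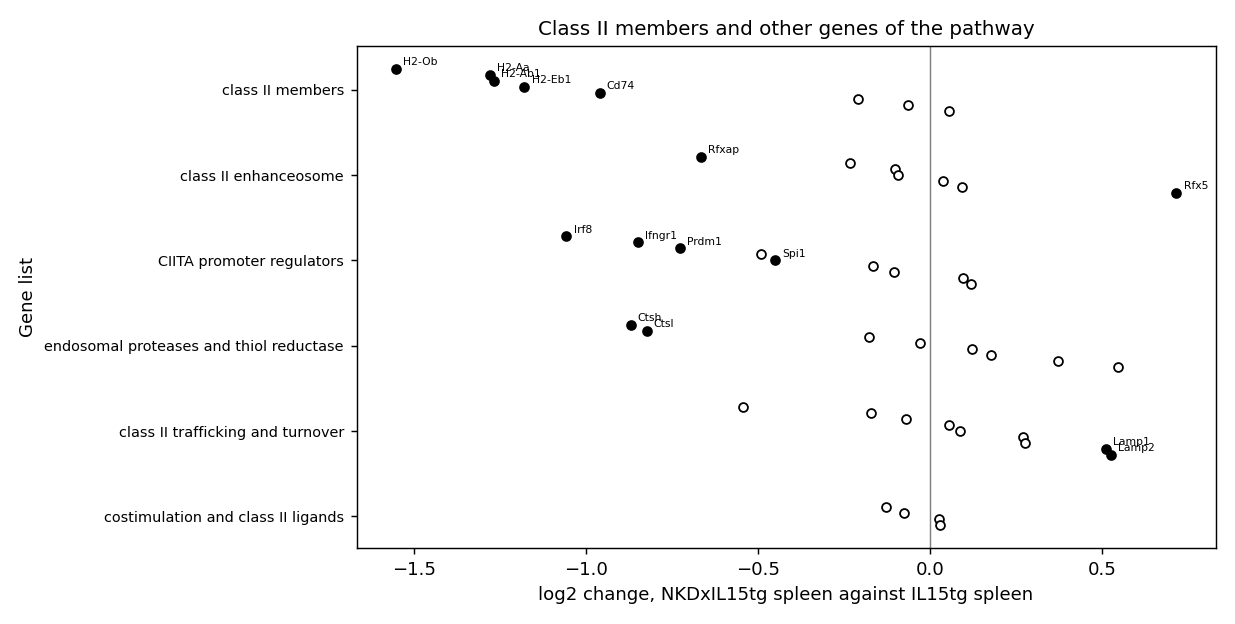
Log2 change between NKDxIL15tg spleen and IL15tg spleen for the class II members, each by its brightest tested probe set, and for the genes of the pathway lists. Filled points have an adjusted p under 0.05; the fallen members lie at or below -0.96, while the called pathway genes other than Irf8 lie between -0.87 and 0.72.

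On chromosome 17 the fallen members other than Cd74 lie next to each other. Among the genes of the class II region with a tested probe set, the RefSeq order runs H2-Oa, Brd2, H2-DMa, H2-DMb2, Psmb9, Tap1, Psmb8, Tap2, H2-Ob, H2-Ab1, H2-Aa, H2-Eb1, H2-Eb2 and H2-Ea, each read by its brightest probe set. H2-Ob, H2-Ab1, H2-Aa and H2-Eb1 fell between the spleens, by 1.55, 1.27, 1.28 and 1.18. The class II genes on either side of them were not called: H2-Oa gave 0.05, H2-DMa -0.21 and H2-DMb2 -0.09, and H2-Eb2 and H2-Ea gave -0.06 and 0.07 (adjusted p = 0.857 and 0.967). The probe sets of H2-DMb2 disagreed, since 1443686_at read 102 in IL15tg spleen and 58.9 in NKDxIL15tg spleen without overlap, a log2 change of -0.76 (adjusted p = 0.0694), and was called lower in bone marrow than in IL15tg spleen (-0.78, adjusted p = 0.0465). The value of H2-Ea and that of the brightest H2-DMb2 probe set have wide errors (SE 0.55 and 0.45), with bone marrow replicate 3 apart in both. Between H2-DMb2 and H2-Ob lie Psmb9 and Psmb8, immunoproteasome subunits that rose by 1.07 ± 0.16 and 1.20 ± 0.15 (adjusted p = 0.00343 and 0.00117), so genes of this region changed in opposite directions. The region was laid out after these values were seen.

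Ranked by the root mean square difference of centred log2 profiles over the 9 arrays, the genes whose pattern was most like that of the classical chains and Cd74 were St6gal1 (0.18), Ppp1r15a (0.26), Serpini1 (0.26), Rap1gap2 (0.27) and Asb2 (0.28), of 12917 candidates. The members' own distances from their mean profile were 0.11 for H2-Aa, 0.13 for H2-Ab1, 0.16 for H2-Eb1 and 0.19 for Cd74. St6gal1, a sialyltransferase, read 93.1, 140 and 169 in IL15tg spleen, 53.4, 49.2 and 49.6 in NKDxIL15tg spleen and 27.5, 34.7 and 22.4 in bone marrow. Like H2-Eb1 it was lowest in replicate 1 and highest in replicate 3 of IL15tg spleen, whereas Rap1gap2 was highest in replicate 2.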

How the data were processed

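NK cell RNA of 9 samples (150 ng of total RNA each, Trizol extraction, 2 cycles of amplification from the 3′ end, per the labels' protocols) was read on Affymetrix arrays of 45101 probe sets. Each probe set has 1 deposited intensity for an array, on a linear scale. The summary and scaling of probes by the authors are steps not given in the sources used here. The number of arrays limits the precision. Gene symbols came from GEO's platform annotation, and 64 control probe sets were left out.

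Intensities were used as deposited, because array medians differed by at most 0.197 log2 units (limit 0.3). Values under 16 were set to 16 (4.36% of values) and log2 transformed. Probe sets with a mean at or above the 40th percentile (47.7 in intensity, 27022 probe sets) were tested with limma 3.58.1 in R 4.3.3, with 3 group means over all 9 arrays, eBayes and 2-sided Benjamini-Hochberg adjustment over all tested probe sets at 0.05. The script was tested on simulated data. Figures show arithmetic means, and percentages of a level come from the log2 fit.

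The members, gene lists and tests were chosen with earlier results of these data known. Every probe set of a member is reported; of other lists, at most the 3 largest called changes, plus defining markers of B cells, dendritic cells and macrophages, and the 5 genes nearest to the members' profile. Where a listed gene has several probe sets, the brightest stands for it. Same-numbered samples deviated together weakly between the spleen groups (r = 0.163, 0.156 and 0.123) and between the NKDxIL15tg groups (0.379, 0.258 and 0.228). Between IL15tg spleen and bone marrow r was 0.170, -0.0236 and 0.242. The labels give no pairing, and correlations this weak do not establish pairs. The numbers were therefore treated only as possible pairs in the first 2 cases, and a fit with the replicate block is reported where it changes a call. Alternatives were floors of 4 and 64, no filter or the 60th percentile, quantile normalization, 75th percentile scaling, array weights, the replicate block, only the groups compared, and each array left out with the probe sets kept. The same alternatives were added for the other named genes after the data were seen.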

Additional observations from a re-analysis of the deposited data

How the results depend on the processing

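Of the 10 tested member probe sets, none changed direction with a call in any alternative. Between the spleens 167 of 177 recomputed values kept their side of the threshold and 10 lost it. The member count of 7 fell to 4 with a floor of 64, which also leaves all 45037 probe sets in the test, and ranged from 4 to 7 with 1 array left out (4 without IL15tg spleen replicate 2). With the floor of 64 the adjusted p was 0.0594 for H2-Aa 1438858_x_at, 0.0827 for H2-Ab1 and 0.0976 for Cd74. H2-Aa 1435290_x_at, H2-Eb1 and H2-Ob kept their calls in every alternative in which they were tested. In bone marrow against IL15tg spleen 166 of 177 values kept their side, and the 11 lost were all of H2-Oa; the member count was 7 to 8 with 1 array left out. In bone marrow against NKDxIL15tg spleen the count of members stayed at 0.

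Over all probe sets, 3725 calls between the spleens became 2102 with a floor of 64 and 5685 with array weights, and 1809 to 5483 with 1 array left out. The 14 calls of bone marrow against NKDxIL15tg spleen became 5 with a floor of 64, 2 without a filter, 23 with the replicate block, and 1 to 15 with 1 array left out. The 5764 calls of bone marrow against IL15tg spleen became 3466 with a floor of 64 and 3089 to 6342 with 1 array left out. Beyond the stated construction, the cause was not tested. Between the spleens and between the NKDxIL15tg groups the replicate block changed no member call.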
